A study of Mus musculus with 8 samples.

Results

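Resting DN3 thymocytes of knock-in (KI) mice were set against those of wild-type (WT) mice. Resting cells were those that the authors' table of cells places in cluster 0 or cluster 1 within the 2 sorted DN3 libraries. KI mice contributed 2469 such cells out of 3298 sorted (74.9%, with an exact binomial interval of 73.3 to 76.3) and WT mice 2255 out of 2885 (78.2%, 76.6 to 79.7), together 4724 of the 10237 cells of the whole series. KI mice carried the Ser389Ala knock-in change of GSK3β, a serine replaced by alanine, and WT mice were C57BL/6J. Thymocytes of both genotypes were first depleted with magnetic beads of cells that bear CD4, CD8, CD11b, MHC class II, B220 or immunoglobulin kappa, and then sorted as CD44- CD25+. Each genotype gave 1 expression library, read from the 5′ end of transcripts, and 1 receptor library from the same cells. The number, age and sex of the mice behind a library are not given in the labels, nor is the strain history of the KI line. Genotype and library therefore cannot be told apart, no test between genotypes was possible, and every interval below is a 95% interval of counting error only.

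DN3 thymocytes are the CD4- CD8- precursors that assemble the β chain of the T cell receptor. The recombinase encoded by Rag1 and Rag2 cuts the locus, the polymerase encoded by Dntt adds bases at the joints, and end-joining enzymes seal them. A cell that makes a working β chain pairs it with the pre-Tα chain, encoded by Ptcra, and the signal of this pre-TCR drives it out of the resting state. GSK3β is a kinase that marks β-catenin and other proteins for destruction, and phosphorylation of the serine replaced here, by p38 kinase, inactivates it. The series title asks how this step bears on the diversity of receptor chains.

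KI resting cells gave 12536768 unique molecular identifiers (UMIs, 1 per captured RNA molecule) and WT resting cells 12820151. A KI cell had a median of 4864 UMIs and 1998 genes, and a WT cell 5446 UMIs and 2166 genes, with 3.08% and 2.78% of UMIs from mitochondrial genes. The authors' phase calls put 96.6% of KI cells (95.8 to 97.2) and 96.7% of WT cells (95.8 to 97.4) in G1. The label held against the markers: Il2ra, which encodes CD25, was read at 646 CPM in KI and 657 CPM in WT, where CPM are UMIs of a gene per 1000000 UMIs of the pooled cells, and Ptcra at 622 CPM in KI and 628 CPM in WT. Cd4 was at 0.798 CPM in KI and 0.702 CPM in WT, Cd8a at 0.239 and 0.312 CPM. Clusters 0 and 1 split almost by library: cluster 0 held 2415 KI and 109 WT cells, and cluster 1 held 54 KI and 2146 WT cells. The comparison was therefore made on their sum, and values within a cluster are given as description. The KI and WT cells shared 14 barcode sequences, and Scrublet called 1 KI and 0 WT resting cells doublets.

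The 2 sets of cells were close for most genes. Of 5964 genes at 20 CPM or more in KI or in WT, 37 were 2-fold or more apart (0.62%), 9 of them higher in KI (0.151%) and 28 lower in KI (0.469%). The median log2 ratio of KI over WT over all measured genes was −0.01, and the central 90% of genes lay between −0.40 and 0.33. At a smaller threshold, a log2 ratio of 0.32 in either direction, 13.2% of genes were apart, 308 higher in KI (5.16%) and 478 lower (8.01%). With receptor, ribosomal protein and mitochondrial genes left out of the total, more genes, 6964, reached 20 CPM. Of these, 522 were higher and 525 lower at this threshold. Of the 37 genes, 24 reached 20 CPM on one side only, 20 of them below it in KI and 4 below it in WT. A sum over cells does not tell fewer cells with a transcript from less of it per cell.

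**Figure D1:**
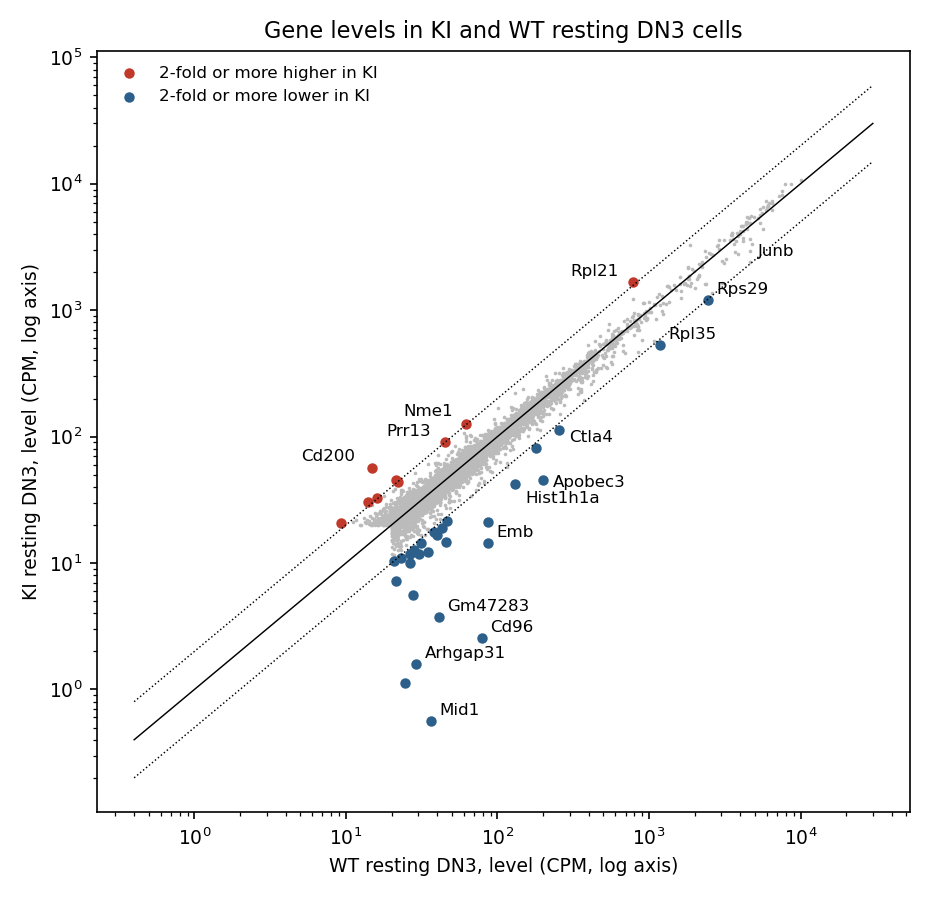
Level of each of the 5964 measured genes in KI (vertical) and WT (horizontal) resting DN3 cells, in CPM on log axes; the solid line marks equal levels and the dotted lines a 2-fold difference. Most genes lie along the diagonal, and Mid1, Gm15518, Arhgap31, Cd96 and Gm47283 stand far below it.

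A few transcripts were nearly absent from KI cells. Mid1, which encodes a ubiquitin ligase and lies at the edge of the pseudoautosomal region (GRCm38 chromosome X, 169685199 to 170005736), had 7 UMIs in KI and 467 in WT, or 0.558 CPM in KI and 36.4 CPM in WT. Its log2 ratio was −6.03 (−7.35 to −4.97), or 65.2-fold lower. Cd96, a receptor of T and NK cells for nectin-family ligands (chromosome 16, 46035657 to 46120251), was at 2.55 CPM in KI and 78.9 CPM in WT, a log2 ratio of −4.95 (−5.51 to −4.44). Gm15518, an antisense RNA in the annotation (chromosome 16, 49758576 to 49798870), was at 1.12 and 24.5 CPM in KI and WT cells (−4.46, −5.34 to −3.69). Arhgap31, which encodes a GTPase-activating protein (chromosome 16, 38598340 to 38713274), was at 1.60 CPM in KI and 29.2 CPM in WT (−4.19, −4.92 to −3.54). Gm47283, annotated at the end of chromosome Y (90784738 to 90816464), was at 3.75 CPM in KI and 40.9 CPM in WT (−3.45). In each of these 5 genes the KI level lay below 4 CPM. Mid1 and Gm47283 lie on the sex chromosomes, where Xist, the RNA that silences one X in females, was at 941.5 CPM in KI and 930.3 CPM in WT. Of the 165 measured genes of chromosome X 9 were higher and 19 lower in KI by a log2 ratio of 0.32 or more (17%, beside 13.2% of all genes).

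The next genes were lower but still read in KI cells. Emb, which encodes embigin, a membrane partner of monocarboxylate transporters (chromosome 13, 117208536 to 117274415), was at 14.3 CPM in KI and 87.1 CPM in WT (−2.61, −2.85 to −2.38). Apobec3, a cytidine deaminase that restricts retroviruses (chromosome 15, 79891659 to 79915906), had 566 UMIs in KI and 2558 in WT, at 45.1 CPM and 199.5 CPM (−2.14, −2.28 to −2.01). The antisense RNA 2900060B14Rik was at 5.58 CPM in KI and 27.8 CPM in WT (−2.32). Ptgs2, the inducible prostaglandin synthase, was at 12.1 CPM in KI and 34.6 CPM in WT (−1.51, −1.79 to −1.25), and Fosl2, an AP-1 subunit, at 11.9 and 30.4 CPM (−1.36). Ctla4, the inhibitory counterpart of CD28, was at 113 CPM in KI and 253 CPM in WT (−1.17, −1.26 to −1.08). Slc38a2, a transporter of neutral amino acids, was at 81.7 CPM in KI and 179 CPM in WT (−1.13). The chromatin-binding gene Banp (−1.18), the interleukin-6 receptor gene Il6ra (−1.11), the chaperone gene Hsph1 (−1.12) and the planar polarity gene Prickle1 (−1.39) lay in the same range. Tgtp2, an interferon-induced GTPase with a near-identical neighbour gene, was at 14.3 CPM in KI and 31.5 CPM in WT (−1.14).

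Only Cd200 stood clearly out on the other side. Cd200, a surface ligand that restrains myeloid cells (chromosome 16, 45382135 to 45409053), had 713 UMIs in KI and 191 in WT, at 56.9 CPM and 14.9 CPM (1.93, 1.70 to 2.17). The other 8 higher genes lay between 1.01 and 1.17. Hdac1, a histone deacetylase gene, was at 44.0 CPM in KI and 21.9 CPM in WT (1.01, 0.80 to 1.22). Nme1, a nucleoside diphosphate kinase gene, was at 126 CPM in KI and 62.2 CPM in WT (1.02, 0.90 to 1.15). Prr13 was at 90.8 CPM in KI and 45.2 CPM in WT (1.01), and Akirin2, a nuclear cofactor gene, at 32.9 and 15.9 CPM (1.05). Dynlt1f, a dynein light chain gene with near-identical copies beside it, was at 30.5 CPM in KI and 14.0 CPM in WT (1.13).

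For many of these genes, though not all, the cells that lay in the other genotype's cluster were closer to the level of their own library. The 54 KI cells of cluster 1 had 273770 UMIs and none from Mid1, Cd96 or Arhgap31, where 3 counts would make 10.96 CPM, while the 2146 WT cells beside them were at 36.96, 79.9 and 29.0 CPM. Conversely, the 109 WT cells of cluster 0 held Cd96 at 48.1 CPM and Arhgap31 at 34.7 CPM, against 2.61 and 1.63 CPM in the 2415 KI cells of that cluster. Apobec3 was at 62.1 CPM in KI cells and 201 CPM in WT cells of cluster 1, and at 44.8 CPM in KI cells and 147 CPM in WT cells of cluster 0. Other genes did not follow their library in the few WT cells of cluster 0: Gm15518 had 0 UMIs there, where 3 counts would make 8.02 CPM, against 1.14 CPM in KI cells, and Ptgs2 was at 11.9 CPM in KI and 13.4 CPM in WT. Cd200 was at 57.0 CPM in KI and 32.1 CPM in WT cells of cluster 0, and at 51.1 CPM in KI and 14.4 CPM in WT cells of cluster 1. In cluster 1 Fosl2 was at 32.9 CPM in KI and 30.7 CPM in WT. Akirin2 was at 7.31 CPM in KI, below the 10.96 CPM of 3 counts, and at 15.7 CPM in WT. The clusters were made from these cells, so these values describe the libraries and test nothing. The WT cells of cluster 0 were shallow, with a median of 2992 UMIs.

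Several of the genes furthest apart lie near Gsk3b, which encodes GSK3β and holds the knock-in change (chromosome 16, 38089001 to 38246084). Gsk3b itself was at 117 CPM in KI and 135 CPM in WT (−0.21, −0.31 to −0.11), and since the replacement alters 1 residue, its RNA level checks no label. Within 20 Mb of it 4 of 97 measured genes were 2-fold apart (4.12%), against 0 of 98 further away on the chromosome and 33 of the 5812 other placed genes (0.568%), these 98 included. The 4 were Arhgap31, at 0.352 Mb, Cd200, at 7.14 Mb, Cd96, at 7.79 Mb, and Gm15518, at 11.5 Mb, all on the same side of Gsk3b. Trat1, an adaptor of the receptor complex 10.5 Mb away, was at 239 CPM in KI and 146 CPM in WT (0.71). Cd47, the ligand that tells macrophages not to engulf a cell, lies beside Gm15518 and was at 386 CPM in KI and 558 CPM in WT (−0.53). Hes1, a repressor induced by Notch and 8.02 Mb away on the other side, was at 203 CPM in KI and 262 CPM in WT (−0.36). At a log2 ratio of 0.32 the share within 20 Mb was 17.5%, against 9.18% further away on the chromosome and 13.1% of all other placed genes. DNA around Gsk3b that came with the modified allele cannot be told apart from the replacement itself in this design.

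**Figure D2:**
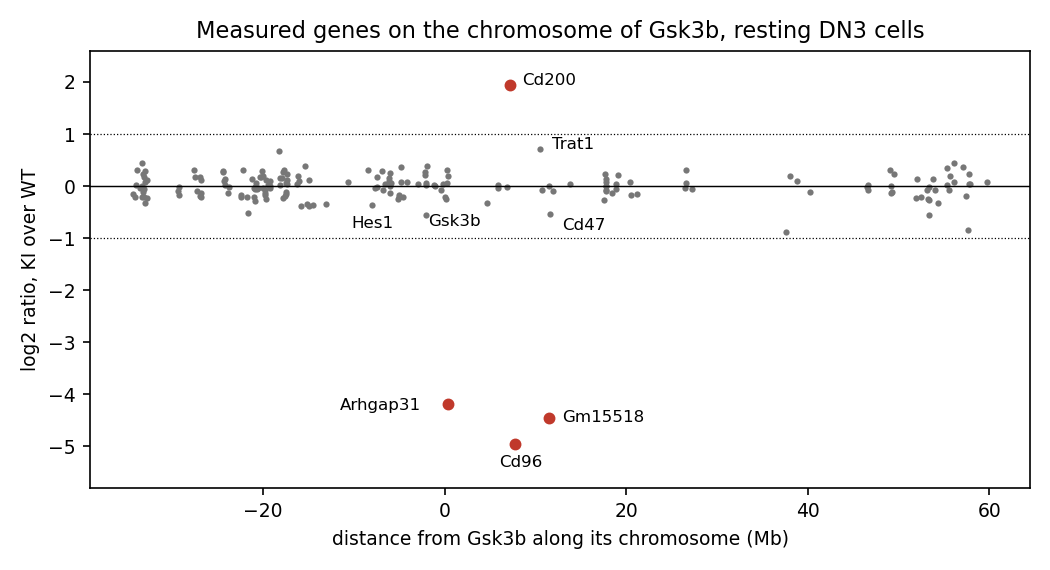
Log2 ratio of KI over WT (vertical) of every measured gene on the chromosome of Gsk3b, by its distance from Gsk3b in Mb (horizontal); dotted lines mark a 2-fold difference. The 4 red points, Cd200 above and Arhgap31, Cd96 and Gm15518 below, lie between 0.352 and 11.5 Mb on one side of Gsk3b.

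Other chromosomes also held genes well apart. Chromosome 15, looked at because Apobec3 lies there, held 5 of 242 measured genes at 2-fold (2.07%), which were Apobec3, Prickle1, Slc38a2, Rpap3 and Prr13. Chromosome 13 held 5 of 218 (2.29%), among them Emb and the 3 histone genes Hist1h3e, Hist1h1a and Hist1h2bj. Their shares past 0.32 were 17.4% on chromosome 15 and 18.3% on chromosome 13, beside 13.2% for all genes.

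Whether the ratios were particular to resting cells could be looked at in the other cells of the series, which comprised 485 KI and 309 WT cycling DN3 blasts of clusters 3 and 4, 290 KI and 243 WT DN3 cells of cluster 6, and, from separate DN4 libraries, 1160 KI and 493 WT blasts and 976 KI and 595 WT γδ-like cells of cluster 2. Of the 37 genes, 23 were measured in DN4 blasts. There 14 were past 0.32 in the direction of resting DN3, 9 of them by 2-fold or more, while 6 were past 0.32 in the opposite direction. In DN4 blasts 0.486% of all measured genes were 2-fold apart, and past 0.32 3.15% were higher and 8.62% lower. The same shares were 0.702%, 5.18% and 6.32% in DN3 blasts, 0.845%, 9.94% and 10.2% in DN3 cluster 6, and 0.828%, 6.79% and 13.4% in γδ-like cells.

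One group of genes had a ratio of one sign wherever the cells came from. Apobec3 had log2 ratios of −2.14 in resting DN3, −1.72 in DN3 cluster 6, −2.52 in DN3 blasts, −2.16 in DN4 blasts and −1.46 in γδ-like cells. Cd96 was at −4.95, −3.65, −4.45, −4.10 and −2.05 in the same order, and Gm47283 at −3.45, −4.18, −3.48, −4.63 and −4.27. Mid1 was at −6.03 in resting DN3, −6.54 (−8.42 to −5.16) in DN3 blasts and −6.21 in DN4 blasts, and at −3.02 (−4.23 to −1.99) in γδ-like cells, whose WT level was lower at 14.3 CPM. Arhgap31 (−1.71 in DN4 blasts), Slc38a2 (−1.01) and Ctla4 (−0.90) were lower in all 5 sets, and Cd200 had a positive ratio in all 5, at 3.23 in DN4 blasts and 0.68 (0.12 to 1.26) in γδ-like cells. In DN3 cluster 6, with 14.8 CPM in KI and 9.81 CPM in WT, its ratio of 0.59 had an interval that includes 0 (−0.15 to 1.35). Emb was lower in all 5 sets as well, but by less outside resting cells. It was at −2.61 in resting DN3, −1.33 in DN3 cluster 6, −1.09 in DN3 blasts, −0.82 in DN4 blasts and −0.56 in γδ-like cells. The difference between sets of cells was not tested.

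A second group had a ratio that all DN3 cells shared and both sets of DN4 cells reversed. Rps29, a small ribosomal protein gene, was at 1202 CPM in KI and 2450 CPM in WT resting cells (−1.03), and at −1.11 in DN3 cluster 6 and in DN3 blasts, but at 0.92 in DN4 blasts and 1.0004 in γδ-like cells. Rpl21 ran the other way, at 1659 CPM in KI and 787 CPM in WT resting cells (1.08), with 1.11 and 0.97 in the other DN3 cells and −0.95 and −1.09 in the DN4 sets. Hdac1 (1.01 in resting DN3 and −0.95 in DN4 blasts), Nme1 (1.02 and −0.998), Akirin2 (1.05 and −0.83), Dynlt1f (1.13 and −1.22) and the Golgi gene Sys1 (0.94 and −0.82) followed Rpl21. Atp5k, a subunit of ATP synthase, followed Rps29, with 57.8 CPM in KI and 115 CPM in WT resting cells (−0.996), and 0.93 in DN4 blasts. DN3 and DN4 cells are from different libraries, and stage and library cannot be told apart.

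Transcript length differed along with this second group. Of the measured genes 97.6% had an annotated protein-coding transcript, and genes with a median length under 600 bases numbered 140. In resting DN3 23.6% of them were lower in KI past 0.32 and 6.43% higher, while in γδ-like DN4 cells, among the resting DN3 genes measured there too, 3.79% were lower and 25% higher, and in DN4 blasts 8.46% were lower and 11.5% higher. Genes of 1000 to 2000 bases had 5.75% lower and 4.96% higher in resting DN3. Rps29 (390 bases), Rps28 (387 bases) and Rpl38 (367.5 bases) were at −1.03, −0.89 and −0.93 in resting DN3, and at 0.92, 0.79 and 0.79 in DN4 blasts. Other short genes did not turn sign by as much or at all, with Rps27 (345 bases) at −0.93 in resting DN3 and −0.34 in DN4 blasts, and Rpl36a (483 bases) at −0.91 and −0.01. Dynlt1f had a length of 771 bases, and Rpl21, Akirin2, Hdac1, Nme1 and Sys1 had lengths of 1067 to 2038 bases. The part of transcript length in any ratio was not tested, and the length classes were chosen after the values were seen.

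**Figure D3:**
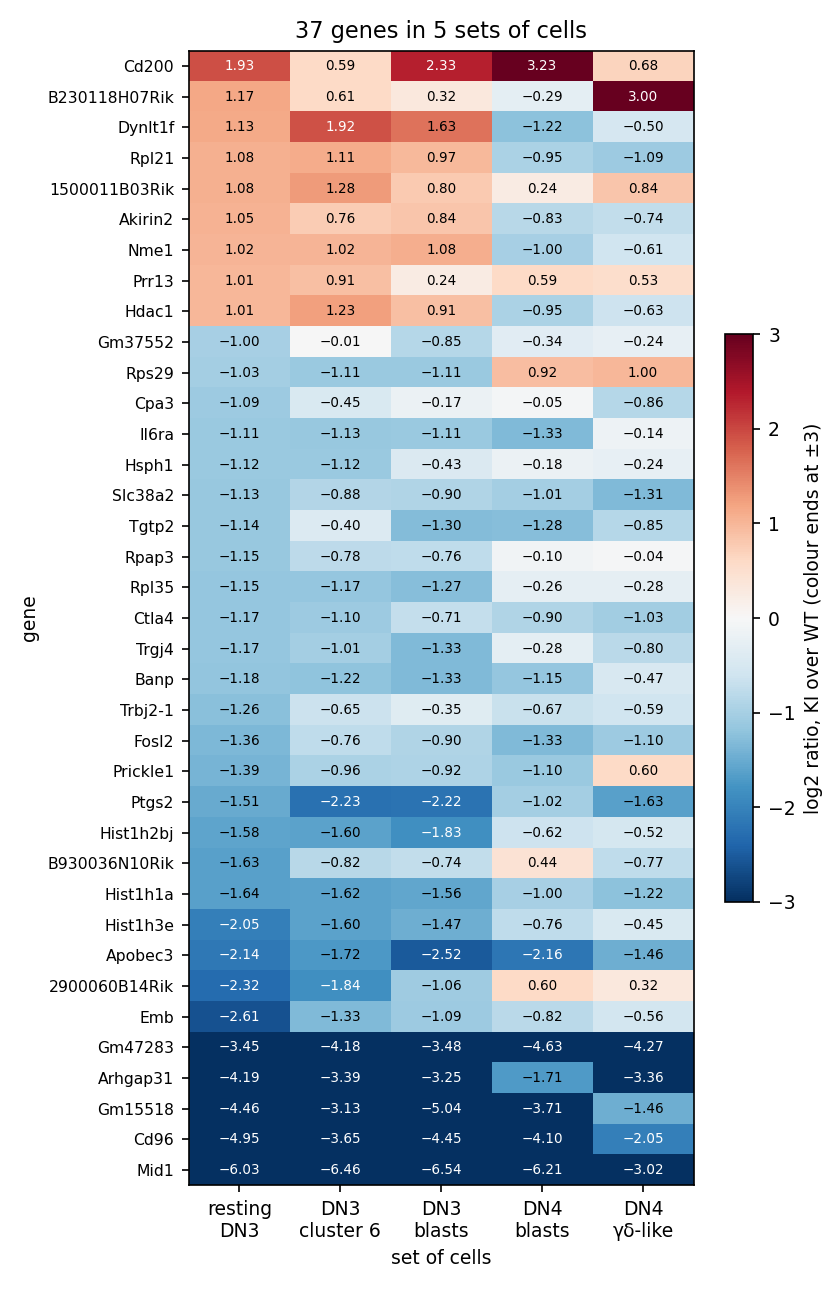
Log2 ratio of KI over WT of the 37 genes that were 2-fold or more apart in resting DN3 cells (rows, ordered by that ratio) in 5 sets of cells (columns), with red for higher and blue for lower in KI. Mid1, Cd96, Gm47283, Arhgap31 and Apobec3 are blue in every column, Cd200 is red in every column, and Rpl21, Hdac1, Nme1, Akirin2 and Dynlt1f turn from red to blue between the DN3 and the DN4 columns.

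Gene groups with smaller and more even differences were described by the members measured at 20 CPM or more, the number higher or lower by a log2 ratio of 0.32 or more, and the median log2 ratio, beside 5.16% higher, 8.01% lower and a median of −0.01 over all genes. Interferon-response genes, induced when a cell senses interferon, were lower in KI: 16 of 30 measured members were lower past 0.32 and 0 higher, with a median of −0.33. Irf7, which amplifies the response, was at 31.4 CPM in KI and 55.4 CPM in WT (−0.82, −0.999 to −0.64). Isg15, a ubiquitin-like modifier, was at 116 CPM in KI and 181 CPM in WT (−0.65), Oasl2 at 12.6 and 21.997 CPM (−0.80), and the surface antigen gene Ly6a at 18.4 and 30.4 CPM (−0.73). Bst2, which tethers budding viruses to the membrane, was at 637 CPM in KI and 802 CPM in WT (−0.33). The immunoproteasome genes Psmb8 and Psmb9 were level (−0.01 and −0.02), as was Ly6e (−0.02), and Dtx3l was at 127 CPM in KI and 105 CPM in WT (0.27). In DN4 blasts the median of the same 30 members was −0.18, with no minimum level applied there. Some were low in those cells, such as Oasl2 at 2.55 CPM in KI and 3.26 CPM in WT, and Irf7 at 8.36 and 10.1 CPM.

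The promoters of 2 members are shown because genes of this list share a DNA element. The element bound by interferon-activated factors contains GAAA, any 2 bases, and GAAA again, which was searched on both strands in RefSeq promoter windows of GRCm38.p6 that run from 250 bases before to 50 after a gene's start. Capitals mark every base inside a match, and matches may overlap. The window of Isg15 (chr4:156200769-156201068, minus strand) holds 3 matches in one stretch, and that of Bst2 (chr8:71537423-71537722, minus strand) holds 2.
Isg15: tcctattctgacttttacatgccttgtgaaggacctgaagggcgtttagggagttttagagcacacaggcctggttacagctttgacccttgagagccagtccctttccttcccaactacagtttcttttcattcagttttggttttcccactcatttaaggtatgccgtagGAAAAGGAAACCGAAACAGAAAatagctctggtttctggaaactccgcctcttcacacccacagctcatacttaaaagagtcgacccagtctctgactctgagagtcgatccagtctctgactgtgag
Bst2: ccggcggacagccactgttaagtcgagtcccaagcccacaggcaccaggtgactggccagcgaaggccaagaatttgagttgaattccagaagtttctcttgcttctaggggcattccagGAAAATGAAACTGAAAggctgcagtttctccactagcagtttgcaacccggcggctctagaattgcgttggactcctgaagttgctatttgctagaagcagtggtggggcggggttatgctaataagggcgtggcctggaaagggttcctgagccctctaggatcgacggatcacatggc
Windows were found for 22 of the 30 measured members. The element was present in 4 of 10 members that were lower past 0.32 (40%) and in 5 of 12 other measured members (41.7%), against 3.99% of all 27025 genes in the table, and members with and without a lower level held it about as often. A match is a run of letters and says nothing about binding in these cells.

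The distribution over cells shows how the interferon difference was spread. With each cell thinned to 3000 UMIs, which kept 2278 KI and 2158 WT cells and left out 191 and 97 shallower ones, the median cell held 15 UMIs of the list in both genotypes. The mean was 15.7 UMIs in KI and 17.0 in WT, and the cell at the 95th percentile had 26 UMIs in KI and 31 in WT. Cells with 30 or more numbered 48 of 2278 in KI (2.11%, 1.56 to 2.78) and 123 of 2158 in WT (5.7%, 4.76 to 6.76). The gap widened towards the upper tail, with 11 UMIs in KI and 12 in WT at the 25th percentile and 18 and 20 at the 75th. Of the 48 KI cells, 24 were among the 52 thinned KI cells of cluster 1 (46.2%, 32.2 to 60.5) and 24 among the 2226 of cluster 0 (1.08%). In WT 122 of 2104 cells of cluster 1 (5.8%) and 1 of 54 cells of cluster 0 passed 30. In cluster 1 the list summed to 13010 CPM in KI and 5733 CPM in WT, and in cluster 0 to 5061 CPM in KI and 5283 CPM in WT. Within cluster 1 alone the median ratio of the list therefore turned to 2.05, and within cluster 0 Irf7 (0.12) and Ly6a (0.24) had positive ratios. These 2 ratios rest on few counts: WT cells of cluster 0 held Irf7 at 21.4 CPM and Ly6a at 13.4 CPM, where 3 counts make 8.02 CPM. The clusters were made from expression, so this is a description.

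Immediate early genes are transcribed within minutes of a stimulus or of handling. Summed over their list, they were lower in KI over most of the distribution of cells. Of 21 measured members 10 were lower past 0.32 and 1 higher, with a median of −0.19, and the whole list summed to 6480 CPM in KI and 8845 CPM in WT. Junb, an AP-1 subunit, was at 2399 CPM in KI and 4616 CPM in WT (−0.94, −0.96 to −0.92) and made up nearly all of that gap. Nr4a3 was at 33.9 CPM in KI and 66.5 CPM in WT (−0.97), Fos at 224 and 358 CPM (−0.68), and Egr1, a factor induced by receptor signals, at 65.3 and 98.4 CPM (−0.59). Other members went the other way or stayed level, with Jun at 856 CPM in KI and 714 CPM in WT (0.26), Dusp2 at 83.0 and 60.6 CPM (0.45) and Dusp1 at 193 CPM on both sides. Thinned KI cells held a median of 18 UMIs of the list (8 at the 10th and 35 at the 90th percentile), and WT cells 26 (13 and 45). These counts include Junb, and the distribution without it was not taken. The 109 WT cells of cluster 0 summed to 9296 CPM, close to the 8832 CPM of WT cells in cluster 1. Within cluster 1 alone, where KI has 54 cells, the median ratio of the list was 0.01, with summed levels of 6984 CPM in KI and 8832 CPM in WT. Junb was also lower in the other cells, at −1.01 in DN3 blasts, −1.19 in DN4 blasts and −1.12 in γδ-like cells. Whether handling differed between the libraries is not given in the labels.

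**Figure D4:**
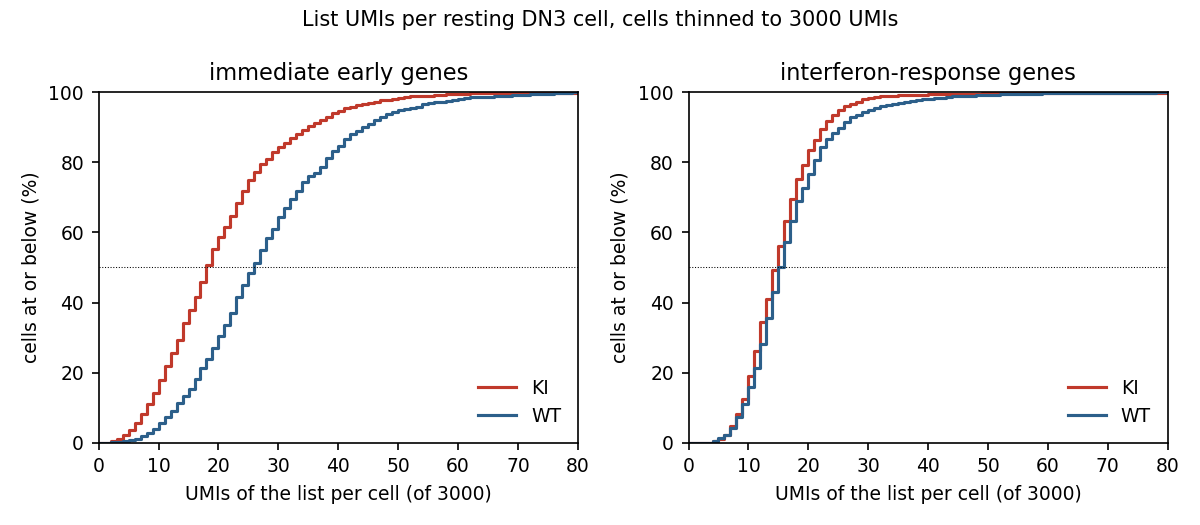
Share of resting DN3 cells (vertical, %) with at most a given number of UMIs of a list (horizontal), for immediate early genes (left) and interferon-response genes (right), with KI in red and WT in blue, each cell thinned to 3000 UMIs. The immediate early curves, which include Junb, are apart over most of their length, with medians of 18 UMIs in KI and 26 in WT. The interferon curves share a median of 15 and part most in the upper tail. Their 95th percentile is at 26 UMIs in KI and 31 in WT.

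Protein folding genes were lower in part. Of 18 measured genes of endoplasmic reticulum (ER) stress 7 were lower past 0.32 and 2 higher, with a median of −0.21. Hspa5, the ER chaperone BiP, was at 375 CPM in KI and 568 CPM in WT (−0.60, −0.65 to −0.55), Xbp1, the factor that expands the ER, at 211 and 282 CPM (−0.42), and the disulfide isomerase gene Pdia3 at 240 and 303 CPM (−0.34). The sensor kinase gene Eif2ak3 was at 56.8 CPM in KI and 40.3 CPM in WT (0.49), and Ddit3, the death factor CHOP, at 45.1 and 34.4 CPM (0.39). Of 12 heat shock genes 5 were lower and 1 higher, with a median of −0.22. They included Hspa8, the constitutive cytosolic chaperone, at 2357 CPM in KI and 3109 CPM in WT (−0.40), while Hsp90ab1 was at 3963 and 3545 CPM (0.16).

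Genes listed as a response to the pre-TCR signal were lower by small amounts, though not all of them rose after selection in these data. Of 12 measured members 5 were lower past 0.32 and 1 higher (median −0.27). The costimulatory receptor gene Cd28 was at 55.8 CPM in KI and 85.6 CPM in WT (−0.62, −0.75 to −0.48), the amino acid transporter gene Slc7a5 at 165 and 233 CPM (−0.50), Tnfaip3, an inhibitor of NF-κB signalling, at 127 and 177 CPM (−0.47), and Myb at 344 and 457 CPM (−0.41). Nfkbia, another inhibitor of that pathway, was at 68.3 CPM in KI and 50.3 CPM in WT (0.44), and Myc was level at 145 and 141 CPM. The proximal signalling machinery was nearly level, with 3 of 20 members lower, 0 higher and a median of −0.01. In it Themis, which encodes a signalling protein of thymocytes, was at 113 CPM in KI and 145 CPM in WT (−0.37) and the kinase gene Lck at 1749 and 1836 CPM (−0.07). Of 13 NF-κB genes 3 were lower and 2 higher (median 0.04).

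The programme that defines resting DN3 cells was alike on both sides. Of 18 measured pre-selection genes 2 were lower past 0.32, 1 was higher and the median was −0.02. Rag1 was at 178 CPM in KI and 156 CPM in WT (0.19, 0.10 to 0.28), Rag2 at 30.8 and 32.995 CPM (−0.10, −0.30 to 0.10) and Dntt at 1914 and 2137 CPM (−0.16, −0.18 to −0.13). Notch1 was at 339 CPM in KI and 327 CPM in WT (0.05) and Notch3 at 97.7 and 99.1 CPM (−0.02), and of 13 Notch pathway genes 1, Hes1, was lower. Spib, an ETS factor of early thymocytes, was the member furthest apart, at 27.4 CPM in KI and 48.8 CPM in WT (−0.83). Among 17 recombination and end-joining genes 3 were lower and 1 higher (median −0.10). Lig4, the ligase that closes the break, was at 43.6 CPM in KI and 64.4 CPM in WT (−0.56), Dclre1c, the nuclease Artemis, at 53.04 and 70.4 CPM (−0.41), and Hmgb1, which helps the recombinase bend DNA, at 349 and 480 CPM (−0.46). Rad50, of the break-sensing complex, was at 49.0 CPM in KI and 35.9 CPM in WT (0.45).

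The RNA of the kinase that the knock-in alters and of its partners was nearly level. Of 12 measured genes of the GSK3 and β-catenin list 1 was lower past 0.32, 0 were higher and the median was 0.04. Gsk3a, the paralogue of Gsk3b, was at 24.97 CPM in KI and 28.1 CPM in WT (−0.17), Ctnnb1, which encodes β-catenin, at 84.6 and 93.8 CPM (−0.15), its partner Tcf7 at 583 and 566 CPM (0.04), and Mapk14, the p38α kinase, at 48.5 and 46.3 CPM (0.07). Lef1, the member that passed, was at 197 CPM in KI and 249 CPM in WT (−0.34). Of 18 listed Wnt targets 5 were measured, 2 of them lower, Lef1 and Bambi (−0.55), and 0 higher, with a median of −0.14. Axin2, the most used readout of β-catenin activity, was below the minimum at 0.877 CPM in KI and 1.64 CPM in WT. Of 5 glycogen genes, 0 passed in either direction.

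**Figure D5:**
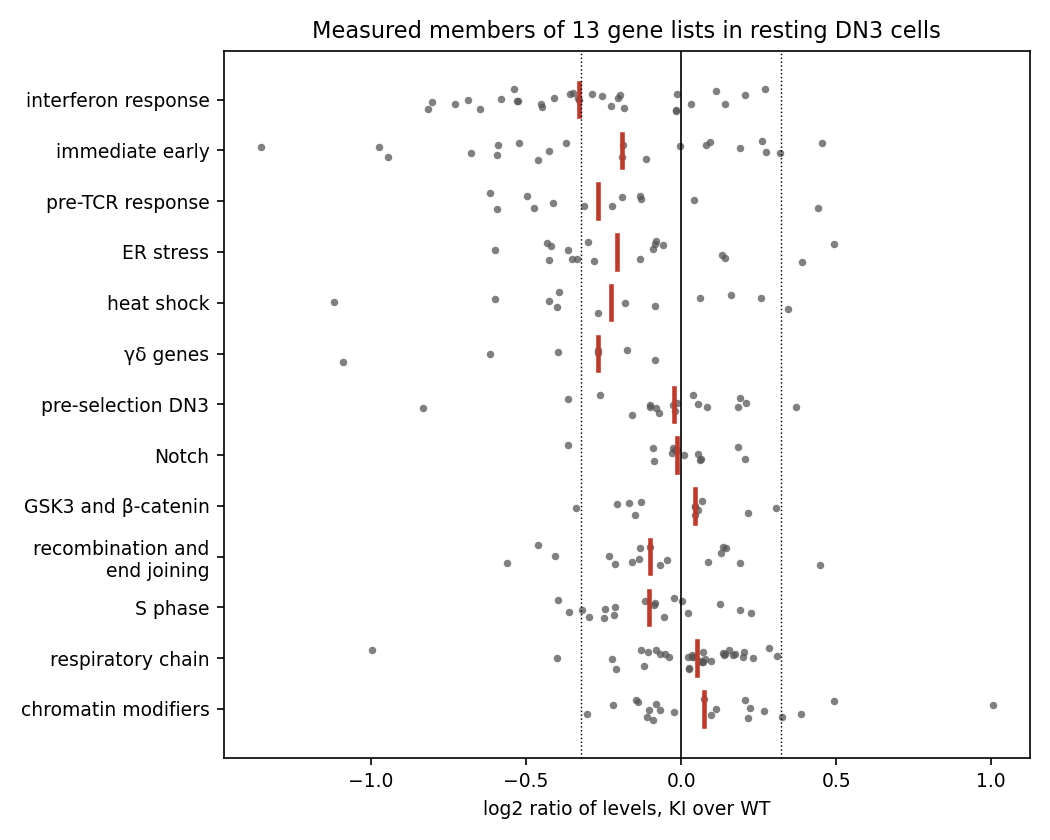
Log2 ratio of KI over WT (horizontal) of the measured members of 13 gene lists (rows) in resting DN3 cells, 1 grey point per gene, with the median as a red bar and log2 ratios of 0.32 either way as dotted lines. Interferon-response genes sit furthest left, with a median of −0.33 and 0 members past 0.32 on the right, while the pre-selection, Notch, and GSK3 and β-catenin lists centre on 0.

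Survival, death and growth genes differed little. Of 7 BCL2 family genes 0 passed 0.32 (median −0.02), with Bcl2 at 128 CPM in KI and 151 CPM in WT (−0.24). Of 10 p53 targets 1 was lower and 1 higher (median −0.04), with the cell cycle inhibitor Cdkn1a at 154 and 172 CPM (−0.15). Of 8 necroptosis and death receptor genes 2 were lower, Birc2 (−0.55) and Zbp1 (−0.53), and 1 higher, the deubiquitinase gene Cyld (0.42). S phase genes had 2 of 18 lower and 0 higher (median −0.10), and only 5 of 36 listed G2/M genes were measured in these cells, 2 lower and 0 higher. Of 9 cyclin D and inhibitor genes 1, Cdk2, was lower (−0.67). Of 14 Myc-related and nutrient uptake genes 3 were lower (median −0.12), and of 14 glycolysis genes 2 (median −0.01). Nuclear respiratory chain genes had 2 of 34 lower and 0 higher (median 0.05). The 13 mitochondrially encoded genes had a median of 0.18, with mt-Nd4, a subunit of complex I, at 1217 CPM in KI and 788 CPM in WT (0.63) and the short mt-Atp8 at 228 and 356 CPM (−0.65).

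Regulators of chromatin were the list with the most members higher in KI, 4 of 21 with 0 lower (median 0.07). Besides Hdac1 these were the maintenance DNA methyltransferase gene Dnmt1, at 62.3 CPM in KI and 44.2 CPM in WT (0.49), the remodeller gene Smarca4, at 698 and 534 CPM (0.39), and Dnmt3b, at 29.8 and 23.8 CPM (0.33). T lineage factors had 4 of 24 lower and 1 higher (median −0.04), and Gata3, a factor that every T cell precursor needs, was at 70.8 CPM in KI and 89.5 CPM in WT (−0.34). E proteins and their Id inhibitors had 0 of 5 past 0.32. Of 14 cytokine receptor and STAT5 genes 2 were lower, Il6ra and Il21r (−0.40), and 1 higher, the feedback inhibitor Socs3, at 29.4 CPM in KI and 18.3 CPM in WT (0.68). Homing and adhesion genes had 3 of 12 lower, Cd96, Cd47 and the thymic homing receptor Ccr9, at 179 CPM in KI and 275 CPM in WT (−0.62), and 1 higher, Cd200. Antigen presentation genes had 3 of 19 lower and 1 higher (median −0.15), and 1 of 3 GIMAP genes was lower. Of the retroviral restriction genes 3 were measured, with Apobec3 and Bst2 lower and Trim28 at −0.07.

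Histone and ribosomal protein genes differed unevenly, and single values in them are uncertain. Many histone genes share near-identical sequence with one another. Of 11 measured histone genes 3 were 2-fold lower and 0 higher, and histone genes took 0.0671% of UMIs in KI and 0.0878% in WT. Hist1h3e was at 21.1 CPM in KI and 87.1 CPM in WT (−2.05), and Hist1h1a at 42.0 and 131 CPM (−1.64), while Hist1h1b was at 84.8 and 52.7 CPM (0.69). Of 83 measured cytoplasmic ribosomal protein genes 15 were lower past 0.32 and 4 higher, with a median of 0.07. They took 28.7% of UMIs in KI and 27.7% in WT. Rpl35 was at 532 CPM in KI and 1185 CPM in WT (−1.15), and Rps7 at 3278 and 1851 CPM (0.82).

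T cell receptor transcripts split between constant and variable segments. Trbc1 was at 573 CPM in KI and 440 CPM in WT (0.38, 0.33 to 0.43), and Trbc2 at 771 and 545 CPM (0.50, 0.46 to 0.54). All 8 measured Trbv genes were lower in KI: Trbv13-2 was at 213 CPM in KI and 279 CPM in WT (−0.39, −0.47 to −0.32), Trbv31 at 12.7 and 23.2 CPM (−0.87) and Trbv17 at 11.7 and 20.05 CPM (−0.77). The joining segment Trbj2-1 was at 16.6 CPM in KI and 39.7 CPM in WT (−1.26). Transcripts of the γ chain locus were lower as well, with Trgv2 at 585 CPM in KI and 897 CPM in WT (−0.62) and Tcrg-C1 at 318 and 383 CPM (−0.27), and 3 of 7 measured genes of the γδ list were lower and 0 higher (median −0.27). Over all 24 measured receptor and immunoglobulin genes 15 were lower past 0.32 and 2, Trbc1 and Trbc2, higher.

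Assembled β chains (TRB) came from the receptor libraries, joined to cells by barcode. A productive TRB contig was found in 118 of 2469 KI resting cells (4.78%, 3.97 to 5.7) and 155 of 2255 WT resting cells (6.87%, 5.86 to 8), a difference of −2.09 percentage points, and the intervals did not overlap. In cells with at least 4000 expression UMIs the shares were 5.31% in KI (94 of 1770) and 7.04% in WT (135 of 1918), a difference of −1.73 percentage points. No interval was taken for these deeper cells. Over all resting cells the median depth was 4864 UMIs in KI and 5446 in WT, and the part of depth in the share was not tested. The median productive contig rested on 13 UMIs in KI and 17 in WT. As a yardstick, DN3 blasts, which have passed the pre-TCR checkpoint, had one in 406 of 485 KI cells (83.7%) and 263 of 309 WT cells (85.1%). Every resting cell with any TRB contig in the deposited tables had a productive one, so cells with only failed joins are not counted here. α chain contigs numbered 0 in both genotypes. Cells with 2 productive TRB contigs made up 3 of 118 in KI (2.54%, 0.527 to 7.25) and 7 of 155 in WT (4.52%, 1.83 to 9.08), a difference not detectable at this depth.

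The chains themselves were similar. The CDR3, the loop across the V-D-J joint that contacts antigen, had a median of 14 amino acids in both genotypes, with a mean of 13.5 ± 2.09 over 121 KI contigs and 13.6 ± 2.14 over 162 WT contigs (SD over contigs). TRBJ1 joints made up 52.9% in KI (43.6 to 62) and 54.9% in WT (46.9 to 62.8). KI contigs used 21 V names and WT contigs 20. TRBV15 was used in 22 of 121 KI contigs (18.2%, 11.8 to 26.2) and 15 of 162 WT contigs (9.26%, 5.28 to 14.8), TRBV5 in 13.2% and 8.02%, and TRBJ2-5 in 14% and 6.79%. The intervals of each pair overlap. All 121 KI and all 162 WT productive CDR3 nucleotide sequences were distinct within their library, and 1 occurred in both. The shared CDR3 and the shortest and longest of each genotype are printed, 5′ to 3′ on the coding strand, to show the range of the joints at this locus on chromosome 6. The shared one combined TRBJ2-7 with a V stretch reported as TRBV12-2 and TRBV13-2, and rested on 46 UMIs in KI and 23 in WT. The shortest encode 8 amino acids in KI (TRBV13-1 with TRBJ1-1) and 6 in WT (TRBV12-1 with TRBJ2-7), and the longest 18 in KI (TRBV20 with TRBJ1-6) and 17 in WT (TRBV17 with TRBJ2-4).
Shared: tgtgccagcggtgattttgaacagtacttc
KI shortest: tgtgccagcatagaagtcttcttt
KI longest: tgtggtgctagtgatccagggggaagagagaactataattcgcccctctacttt
WT shortest: tgtgccagctcccacttc
WT longest: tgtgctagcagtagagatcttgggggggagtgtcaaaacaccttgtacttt
The shortest WT chain was carried by 2 UMIs.

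Some markers of NK, myeloid and B cells were at or near 0 on both sides, while others of the same lists were read. Lists that resting DN3 cells share with other stages were read as well. NK, innate lymphoid and NKT markers had 3 of 17 measured, Gzma at 152 CPM in KI and 257 CPM in WT (−0.76), Gata3 and Nkg7, and summed to 363 CPM in KI and 516 CPM in WT, while Klrb1c, Klrd1, Klrk1, Ccl5 and Eomes were at 0 in both. Myeloid markers summed to 916 CPM in KI and 1064 CPM in WT, mostly Bst2, and Itgam, Fcgr3 and C1qa were at 0 in both. B cell markers summed to 245 CPM in KI and 282 CPM in WT, of which Ighm made 136 and 170 CPM. Cd79b was at 94.3 CPM in KI and 95.6 CPM in WT (−0.02), and Cd79a at 0.399 CPM in KI and 0.390 CPM in WT. Earlier DN1 and DN2 genes had 1 of 15 measured, Cd82, at 102 CPM in KI and 160 CPM in WT (−0.66), with Kit at 7.498 and 7.57 CPM. The mast cell protease gene Cpa3 was at 10.9 CPM in KI and 23.2 CPM in WT (−1.09). Double-positive stage genes summed to 2707 CPM in KI and 3037 CPM in WT and had 4 of 10 measured members lower and 0 higher (median −0.12), with Endou at 262 CPM in KI and 416 CPM in WT (−0.67). Genes of mature αβ T cells summed to 515 CPM in KI and 628 CPM in WT, and of 6 measured 3 were lower and 0 higher (median −0.37). The part of such cells in the differences above was not tested. Epcam, an adhesion gene of epithelia that DN3 cells also expressed here, was at 303 CPM in KI and 210 CPM in WT (0.53).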

How the data were processed

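Thymocyte RNA was measured as unique molecular identifier (UMI) counts per gene and cell in a matrix of 15653 genes and 10237 cells that the authors deposited, with their clusters, cell cycle phases and assembled receptor contigs. The build was mm10 and the software Cell Ranger, in versions 3.1.0 and 6.0.1, per the submitters' processing notes. Their use by file is not given in the sources used here. All cells mapped to a library, with 0 unmapped columns.

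Counts of the resting DN3 cells of a library were summed and scaled to CPM here, with no further normalization. A gene was measured at 20 CPM or more on either side. Ratios are log2 of KI over WT CPM, with exact conditional binomial 95% intervals (scipy 1.17.1) that cover counting error between these 2 libraries only; the procedure was tested on simulated data. With 1 library a genotype no test was made. Gene positions are from GENCODE on GRCm38 (15459 symbols placed, 194 not). Genes named are the 10 highest and 10 lowest ratios outside receptor, ribosomal and mitochondrial genes and a short list of sex-linked genes (which holds Xist but neither Mid1 nor Gm47283), Gsk3b, up to 4 members a list and 11 fixed genes; others were chosen after their values were seen. Members and lists were chosen with earlier results of these data known. Scrublet, in scanpy 1.11.5, marked 5 KI and 4 WT DN3 cells (0.152% and 0.139%), too few for a caller that works, and doublets were left in. Alternatives covered other minimums, edgeR 4.0.16 TMM and DESeq2 1.42.0 size factors, thinning to 3000 UMIs and subsets of cells. Receptor contigs were joined to cells by barcode: 728 of 751 KI and 597 of 608 WT barcodes were in the matrix. Some results are not reported here.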

Additional observations from a re-analysis of the deposited data

Results flagged for a closer look

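Ratios with opposite signs in resting DN3 cells and in DN4 blasts drew attention for 6 genes that were 2-fold or more apart in resting DN3. Log2 ratios of KI over WT in resting DN3 and in DN4 blasts were 1.05 and −0.83 for Akirin2, 1.01 and −0.95 for Hdac1, and 1.08 and −0.95 for Rpl21. They were 1.02 and −0.998 for Nme1, 1.13 and −1.22 for Dynlt1f, and −1.03 and 0.92 for Rps29. Each side of each ratio is 1 library, and the difference between the sets of cells was not tested.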

How the results depend on the processing

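The counts of genes depended on the minimum level and on the cells used. Counts are given in the order 2-fold apart, higher and lower in KI, and higher and lower past 0.32 on the log2 scale. As reported they were 37, 9, 28, 308 and 478 of 5964 measured genes. They were 100, 24, 76, 767 and 915 of 8998 at 5 CPM, and 13, 4, 9, 106 and 242 of 3243 at 50 CPM. With no minimum they were 730, 358, 372, 2047 and 2153 of 14839. A mean of 10 CPM gave 464 of 7542 higher past 0.32. The total without receptor, ribosomal protein and mitochondrial genes gave 522 of 6964. The mean of per-cell CPM gave 5 of 5968 genes 2-fold higher. Smaller sets of cells gave more genes apart at the minimum of 20 CPM. Cluster 0, with 109 WT cells, gave 294, 121, 173, 1031 and 1640 of 6251. Cluster 1, with 54 KI cells, gave 527, 277, 250, 1574 and 1424 of 6294. Cells with a productive TRB contig gave 279, 119, 160, 1155 and 1292 of 6032. Gsk3b was at −0.34 after thinning, 0.13 in cluster 0 and −0.36 in cluster 1. In cluster 0 Irf7 (0.12) and Ly6a (0.24) had positive ratios that rest on few WT counts. In cluster 1 the signs turned for the interferon median (2.05), the retroviral restriction median (0.69), Irf7 (2.82), Oasl2 (3.54), Ly6a (2.09), Ifi27l2a (0.82) and Fosl2 (0.0991). Akirin2 (−1.10) and Apoe (−1.985) turned as well, but their KI levels there, 7.31 and 3.65 CPM, rest on fewer than 3 counts. The cause was not tested. TMM and size factors moved 0 of 37 list medians and 0 of 39 named genes. Over the 14 alternatives other than cluster 0, cluster 1 and cells with a productive TRB contig the interferon median lay between −0.41 and −0.28, and the immediate early median between −0.42 and −0.15. In those 3 sets of cells the interferon median was −0.26, 2.05 and −0.41, and the immediate early median −0.19, 0.01 and −0.10. No paired analysis was possible because each genotype has 1 library. Depth limits the low genes: 3 counts among the KI cells of cluster 1 make 10.96 CPM.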
